A study of Mus musculus with 18 samples.

Results

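Cyp1a1, Cyp1a2, Cyp1b1, Ahrr and Tiparp are genes that the aryl hydrocarbon receptor (AHR) is known to control, and all 5 were measured among the 22180 genes with a probe of their own on the array. The members were taken by gene symbol from the table of probe annotations made for the array. They had 6 such probes, since Tiparp had 2, and the probe with the highest mean over the 18 arrays stood for each gene. The symbols of all 6 probes were the same in RefSeq.

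Liver RNA came from male C57BL6 mice fed their diet freely for 12 weeks, from 6 to 18 weeks of age, and each group had 3 biological replicates. On the high-fat diet (45% of energy from fat) the groups were PFNA, PFOS and a control for which the labels name no compound, and on the low-fat diet (10% of energy from fat) they were again PFNA, PFOS and a control. PFNA (perfluorononanoic acid) and PFOS (perfluorooctane sulfonic acid) are persistent surfactants with a carboxylic and a sulfonic acid head group, and each was mixed into the diet. No label states a dose, so a difference between the compounds may also be one of dose, and whether the doses were matched cannot be told from the labels.

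AHR is a cytosolic receptor for dioxins, polycyclic aromatic hydrocarbons and other planar ligands. Bound by a ligand, it moves to the nucleus, pairs with ARNT and activates genes whose control regions hold the core sequence GCGTG. In liver the best known outputs are the cytochromes P450 Cyp1a1, which is nearly silent until a ligand arrives, and Cyp1a2, which hepatocytes around the central vein make at all times. Cyp1b1 is the related P450 of stellate and other non-hepatocyte cells. Ahrr encodes a repressor that competes for ARNT, and Tiparp encodes an ADP-ribosyltransferase that shuts AHR signalling down, so both act as negative feedback.

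Matches to that core close to the start site were counted for each member. RefSeq (GRCm38.p6) gave a promoter for all 5 genes, and the 250 bases before the start site were searched for GCGTG on both strands (CACGC on the printed strand). Of 32851 such windows, 28.2% held at least 1 match. Cyp1a1 and Cyp1a2 are neighbours on chromosome 9 with the start sites used 13958 bases apart on opposite strands. The Cyp1a1 start site used (57697613) lies inside the annotated gene (57687928 to 57703824), so this distance and the Cyp1a1 window depend on that choice. The windows of Cyp1a1 and Cyp1a2 are shown because this pair had a dim and a bright probe, together with that of Ahrr (chromosome 13), which had the most matches. The windows run 5′ to 3′ along each gene, at chr9:57697363-57697612 (plus strand) for Cyp1a1, chr9:57683656-57683905 (minus strand) for Cyp1a2 and chr13:74292332-74292581 (minus strand) for Ahrr. Capitals mark the matches.
Cyp1a1: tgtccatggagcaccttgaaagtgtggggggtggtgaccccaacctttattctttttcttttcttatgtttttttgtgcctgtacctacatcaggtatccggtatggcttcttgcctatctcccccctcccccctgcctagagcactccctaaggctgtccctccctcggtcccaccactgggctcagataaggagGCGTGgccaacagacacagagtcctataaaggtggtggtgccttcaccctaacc
Cyp1a2: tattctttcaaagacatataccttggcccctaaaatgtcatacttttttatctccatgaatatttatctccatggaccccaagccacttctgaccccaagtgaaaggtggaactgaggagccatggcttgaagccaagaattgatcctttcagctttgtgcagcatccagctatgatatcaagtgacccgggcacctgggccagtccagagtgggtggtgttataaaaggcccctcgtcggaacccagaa
Ahrr: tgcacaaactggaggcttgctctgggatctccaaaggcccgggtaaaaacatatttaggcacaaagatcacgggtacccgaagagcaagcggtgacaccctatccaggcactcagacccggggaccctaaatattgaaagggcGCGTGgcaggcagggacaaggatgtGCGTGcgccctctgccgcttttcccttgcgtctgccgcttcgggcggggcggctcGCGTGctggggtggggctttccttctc
The Ahrr window held 3 matches, and 2.8% of all windows held 3 or more. The windows of Cyp1a1, Cyp1b1 (chromosome 17) and Tiparp (chromosome 3) held 1 match each, which began at positions −54, −76 and −170 counted from the start site. The Cyp1a2 window held 0. A match is a description of letters, and sequence farther upstream was not searched. A window without a match therefore does not show that a gene lacks the core.

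Whether a member was expressed was judged against 1405 probes for olfactory and vomeronasal receptors, which serve sensory neurons and not liver. The 95th percentile of their log2 signal lay between 4.33 and 4.64 on the 18 arrays, with a mean of 4.45. Cyp1a2 (10.53 to 11.76) and the Tiparp probe used (4.79 to 5.57) were above this level on 18 of 18 arrays. Cyp1a1 (4.13 to 4.82) was above it on 7, Ahrr (3.74 to 4.54) on 1 and Cyp1b1 (2.80 to 3.85) on 0. The signals of Ahrr and Cyp1b1 were thus within the range of genes that liver does not use, and that of Cyp1a1 lay at the upper edge of this range. For all 3 a small change in RNA may not have been detectable. The second Tiparp probe (1.81 to 2.49) was above the level on 0 arrays. Signals of different probes are not amounts of RNA that can be set against each other.

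**Figure D1:**
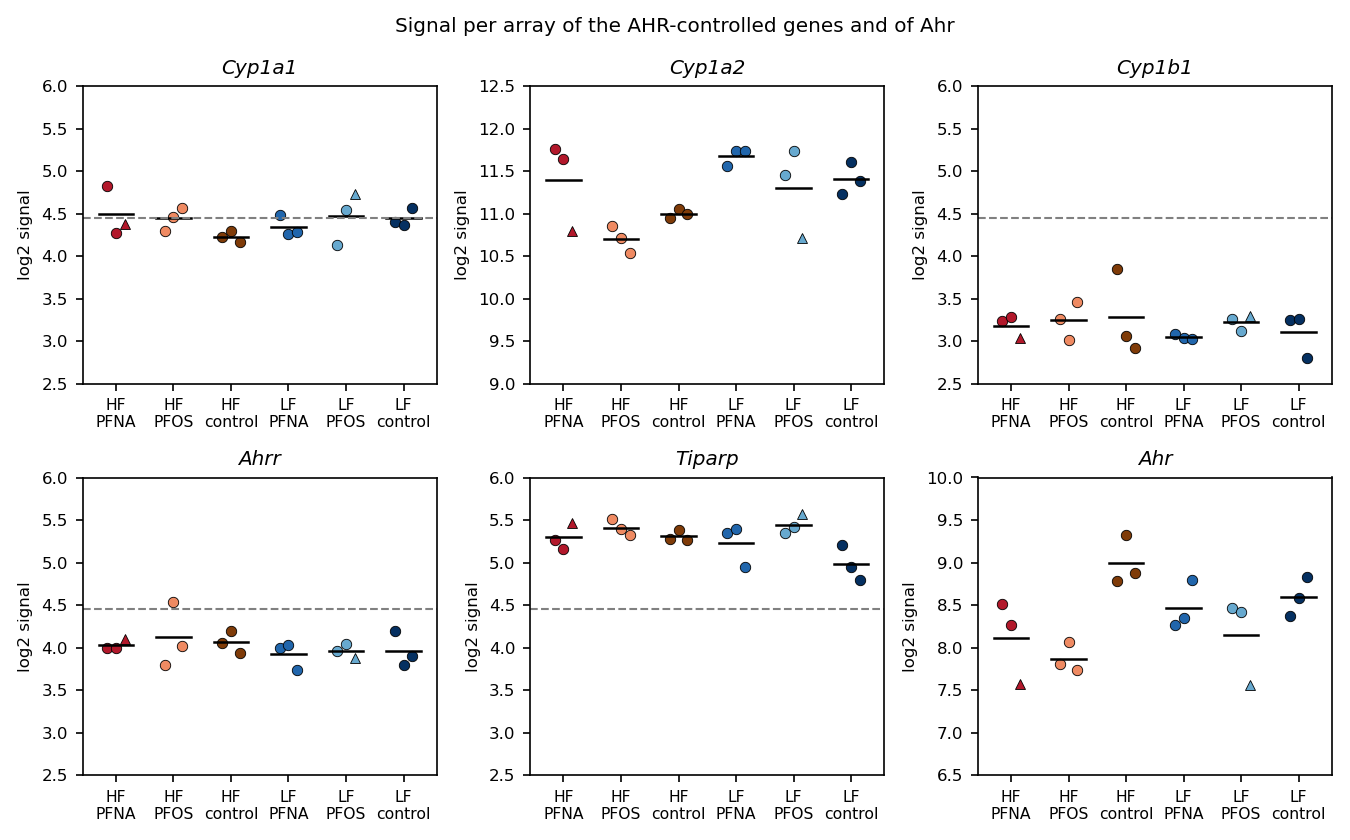
Log2 signal of Cyp1a1, Cyp1a2, Cyp1b1, Ahrr, Tiparp and Ahr in each of the 18 arrays, by group (HF, high-fat; LF, low-fat). Points are arrays, bars are means of 3 arrays, triangles are low-fat PFOS replicate 3 and high-fat PFNA replicate 3, and the dashed line at 4.45 is the mean 95th percentile of the receptor probes; Cyp1a2 is lowest in the 3 high-fat PFOS arrays and the 2 triangles, which lie between 10.53 and 10.85.

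The label of liver was checked against hepatocyte markers. All 8 hepatocyte markers, such as Alb and Apoa1, exceeded the receptor probes' level in their mean signal, and the mean of the list lay between 12.25 and 12.57 on every array. The first principal component of all probes set 5 arrays apart from the other 13, with scores of 27.8 to 38.6 against −22.9 to −8.1. They were the 3 high-fat PFOS arrays, high-fat PFNA replicate 3 and low-fat PFOS replicate 3. The last 2 are called the divergent arrays here, and selected results on the members, the AHR lists and the pericentral list are also given without them.

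None of the 5 members passed the test in any of the comparisons. Differences were fitted with limma over all 34472 probes, and a gene was called at a Benjamini-Hochberg adjusted p under 0.05 over all of them. In 13 contrasts the 5 members gave 65 tests, of which 0 were called and 6 had an unadjusted p under 0.05. The lowest unadjusted p was 0.0046 and the lowest adjusted p was 0.192. Of all 34472 probes, 1351 had an unadjusted p under 0.05 between the compounds on the low-fat diet, the fewest of any contrast. The most, 6538, had one for any compound against none. The 6 of the members were not tested against such counts. Among all probes the share called was 0.113% for PFNA and 1.02% for PFOS on the high-fat diet, and 0.566% for PFNA and 0.389% for PFOS on the low-fat diet. It was 5.01% for any compound against none with the diets pooled. A count of 0 among 5 genes is near these shares. A limma F test across the 6 groups called 0.96% of probes and again 0 of the 5 members.

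Cyp1a1 is the member that responds most to classic AHR ligands, and its signal differed little between groups. It was 4.82, 4.27 and 4.38 in high-fat PFNA livers and 4.30, 4.46 and 4.57 in high-fat PFOS livers, against 4.22, 4.29 and 4.17 in high-fat controls. It was 4.48, 4.26 and 4.28 in low-fat PFNA livers and 4.13, 4.54 and 4.73 in low-fat PFOS livers, against 4.4, 4.37 and 4.57 in low-fat controls. The high-fat PFOS arrays were all above the high-fat controls, and the other 3 exposed groups overlapped their controls.

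The largest log2 difference of Cyp1a1 from its control was 0.26 (SE 0.16) for PFNA on the high-fat diet, with an interval of −0.07 to 0.60 and an adjusted p of 0.646. PFOS on the same diet differed by 0.22 (SE 0.16, adjusted p = 0.619). In that comparison 9.71% of all probes were higher without overlap. On the low-fat diet the differences were −0.11 (SE 0.16) for PFNA and 0.02 (SE 0.16) for PFOS. Across the 4 comparisons the highest upper limit of a 95% confidence interval was 0.60, a 1.52-fold rise in signal. Since the signal lay at the level of the receptor probes, that limit bounds the array signal and not the RNA. Between the diets, all 3 high-fat controls were below all 3 low-fat controls (−0.22, SE 0.16, adjusted p = 0.875). In that comparison 5.54% of probes were lower without overlap. The diet difference was −0.02 (SE 0.16) under PFOS and 0.15 (SE 0.16) under PFNA.

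**Figure D2:**
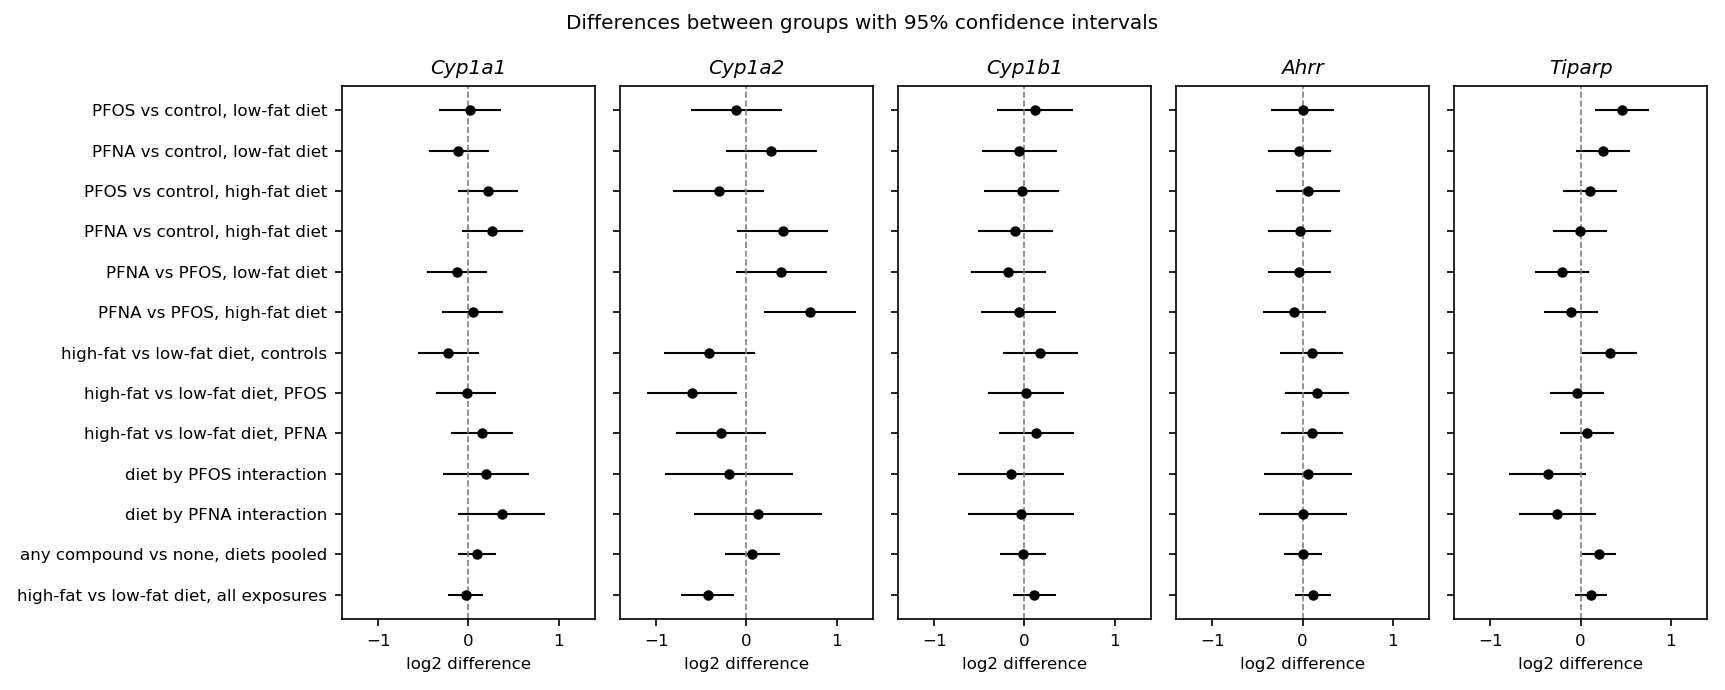
Log2 differences of the 5 members in 13 contrasts, with 95% confidence intervals from the limma fit to all 18 arrays; a positive difference means more signal in the group named first. The intervals leave out 0 in 6 of 65 cases, and none of the 65 passed the adjusted threshold. Of all 34472 probes, 1351 to 6538 had an unadjusted p under 0.05, depending on the contrast.

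Cyp1a2, the constitutive hepatocyte P450 that oxidises caffeine and arylamines, varied most among the members. Its group means spanned 0.98 on the log2 scale, against 0.46 for Tiparp and at most 0.26 for the other 3. It was 11.76, 11.64 and 10.80 in high-fat PFNA livers, 10.85, 10.71 and 10.53 in high-fat PFOS livers and 10.95, 11.05 and 11.0 in high-fat controls. It was 11.56, 11.74 and 11.74 in low-fat PFNA livers, 11.45, 11.73 and 10.71 in low-fat PFOS livers and 11.23, 11.61 and 11.38 in low-fat controls. The low value in 2 of these groups was that of the divergent array. All 3 high-fat PFOS arrays were below all 3 high-fat controls, by a smaller gap than the spread within PFOS, in a comparison where 8.68% of probes were lower without overlap.

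From the highest mean to the lowest, the order of Cyp1a2 was low-fat PFNA (11.68 ± 0.10, SD, n = 3), low-fat control (11.41 ± 0.19), high-fat PFNA (11.40 ± 0.52), low-fat PFOS (11.30 ± 0.53), high-fat control (11.0 ± 0.05) and high-fat PFOS (10.70 ± 0.16). Neighbours in this order differed by at most 0.30, or 1.27 times the standard error of a difference (0.24). The arrays of the last pair, high-fat control and high-fat PFOS, did not overlap. Without the divergent arrays the difference of this pair was again −0.30, with an SE of 0.13 (limma adjusted p = 0.283). The F test across the groups gave an adjusted p of 0.186 (unadjusted 0.0107).

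Neither compound shifted Cyp1a2 beyond the error when set against its control. On the high-fat diet the log2 difference was 0.40 (SE 0.24, interval −0.10 to 0.90, adjusted p = 0.636) for PFNA and −0.30 (SE 0.24, interval −0.81 to 0.20, adjusted p = 0.646) for PFOS. On the low-fat diet it was 0.27 (SE 0.24, interval −0.23 to 0.78) for PFNA and −0.11 (SE 0.24, interval −0.61 to 0.39) for PFOS. With both diets and compounds pooled it was 0.06 (SE 0.15, interval −0.24 to 0.37, adjusted p = 0.865). Without the divergent arrays the difference was 0.70 (SE 0.15, adjusted p = 0.0523) for PFNA on the high-fat diet, 0.18 (SE 0.15) for PFOS on the low-fat diet and 0.21 (SE 0.08, adjusted p = 0.16) with all pooled.

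The compounds themselves differed most in Cyp1a2 on the high-fat diet, where PFNA livers exceeded PFOS livers by 0.70 (SE 0.24, interval 0.20 to 1.21). This did not pass the test over all probes (adjusted p = 0.654, unadjusted p = 0.00881), and the groups overlapped through high-fat PFNA replicate 3. The share of probes called in this comparison was 0.0029%. Without the 2 divergent arrays the difference was 1.0 (SE 0.15, adjusted p = 0.00296). On the low-fat diet PFNA livers exceeded PFOS livers by 0.38 (SE 0.24, interval −0.12 to 0.89), or by 0.09 without the divergent arrays.

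The high-fat diet went with lower Cyp1a2 in point estimate under every exposure. The difference from the low-fat diet was −0.41 (SE 0.24, adjusted p = 0.83) in controls, −0.60 (SE 0.24, adjusted p = 0.622) under PFOS and −0.28 (SE 0.24, adjusted p = 0.997) under PFNA. Pooled over the exposures it was −0.43 (SE 0.14, interval −0.72 to −0.14, adjusted p = 0.517, unadjusted p = 0.00617). All 3 high-fat controls were below all 3 low-fat controls, in a comparison where 5.54% of probes were lower without overlap. The share of probes called was 0.0029% for the pooled diet and for the controls, and 0% under PFOS and under PFNA. Without the divergent arrays the difference under PFOS was −0.89 (SE 0.15, adjusted p = 0.00572), under PFNA 0.02 (SE 0.15) and pooled −0.43 (SE 0.08, adjusted p = 0.06). The interaction of diet with compound was −0.19 (SE 0.34) for PFOS and 0.13 (SE 0.34) for PFNA, with 0% of probes called in both. Without the divergent arrays the interaction was −0.49 (SE 0.20, adjusted p = 0.372) for PFOS and 0.43 (SE 0.20, adjusted p = 0.933) for PFNA.

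The 2 divergent arrays were left out for their scores over all probes, with their values known. For any gene given here, calls without these 2 arrays are thus no independent evidence. Low-fat PFOS and high-fat PFNA then had fewer arrays than the other groups. Leaving out either divergent array alone also brought Cyp1a2 past the threshold in the F test, with an adjusted p of 0.0457 without low-fat PFOS replicate 3 and 0.0481 without high-fat PFNA replicate 3. Without both it was 0.00139. In whole liver, fewer cells of a type and less RNA per cell cannot be told apart, and this holds for every signal given here.

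The low Cyp1a2 arrays were low in the receptor's own transcript too. Ahr, which encodes the receptor, was 8.51, 8.27 and 7.57 in high-fat PFNA livers, 7.81, 8.06 and 7.74 in high-fat PFOS livers and 8.78, 9.32 and 8.88 in high-fat controls. It was 8.26, 8.35 and 8.79 in low-fat PFNA livers, 8.47, 8.42 and 7.56 in low-fat PFOS livers and 8.37, 8.58 and 8.83 in low-fat controls. In the 5 arrays with high component scores Ahr lay between 7.56 and 8.06, against 8.26 to 9.32 in the other 13. Cyp1a2 lay between 10.53 and 10.85 in the 5 and between 10.95 and 11.76 in the 13. The component was computed from all probes, those of these 2 genes included. The share of all probes that part the 5 arrays from the 13 was not counted, so the parting is not shown to be particular to these genes. The same limit holds wherever these 5 arrays are set against the 13. The high-fat controls parted the 2 genes, since they had the highest mean of Ahr (8.99 ± 0.29, SD, n = 3) and the second lowest of Cyp1a2.

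**Figure D3:**
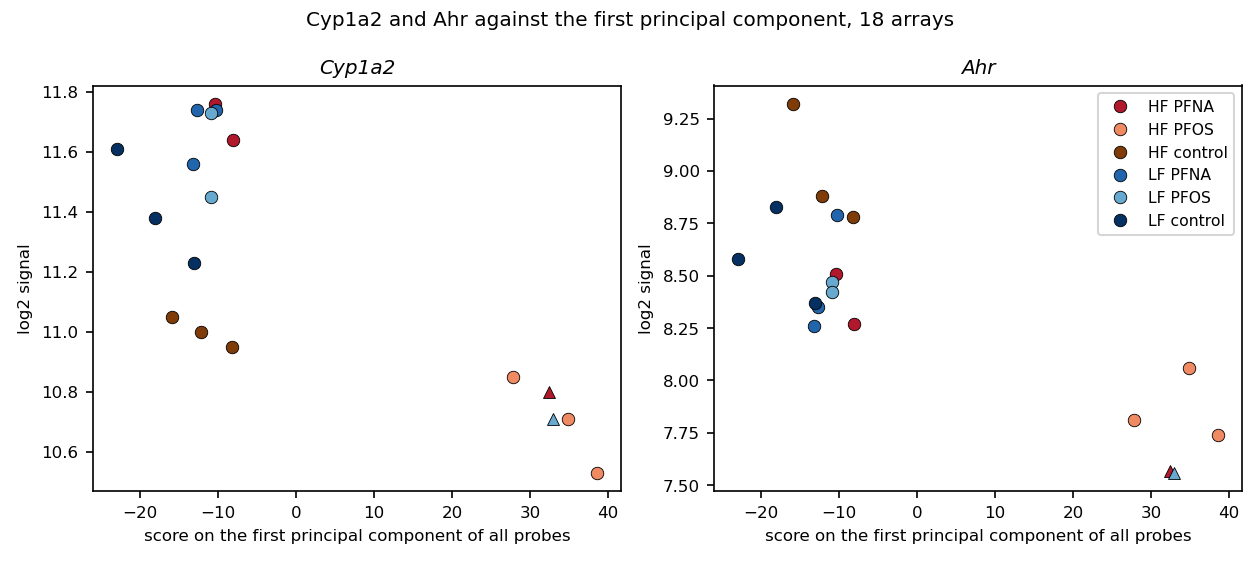
Log2 signal of Cyp1a2 (left) and Ahr (right) in each array against its score on the first principal component of all probes, which held 17.9% of the variance; colours are groups and triangles are the divergent arrays. The 5 arrays with scores of 27.8 to 38.6 have the lowest signal of both genes, and the high-fat controls have Ahr signals of 8.78 to 9.32. The share of all probes that part these 5 arrays from the others was not counted.

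Ahr fell under PFOS on the high-fat diet, by 1.12 on the log2 scale (SE 0.26, interval −1.66 to −0.58, limma adjusted p = 0.0445). No array of the compared groups overlapped, in a comparison where 8.68% of all probes were lower without overlap. The call ended without any 1 of the 6 compared arrays, with adjusted p between 0.0672 and 0.162, and the difference then lay between −1.23 and −0.96. Ahr also fell over all exposed against control livers (−0.64, SE 0.16, adjusted p = 0.0244), a call that ended without low-fat control replicate 2 or 3 or high-fat control replicate 2. For PFNA on the high-fat diet the difference was −0.88 (SE 0.26, adjusted p = 0.22).

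Cyp1a2 is a gene of pericentral hepatocytes, and the list of 11 pericentral markers was set beside it. The mean signal of the list was 9.09 to 9.45 in the 5 arrays with high component scores and 9.50 to 9.98 in the other 13. The list of 6 measured periportal markers ran from 10.53 to 10.77 in the 5 and from 10.48 to 10.98 in the 13. Under PFOS on the high-fat diet 3 of the 11 pericentral genes fell and 0 rose, against 0.389% of all probes lower and 0.632% higher, and the median difference of the list was −0.04, against −0.01 over all probes. The 3 were Gulo, an enzyme of vitamin C synthesis (−1.38, SE 0.32, adjusted p = 0.0497), the Wnt co-receptor Lgr5 (−1.22, SE 0.23, adjusted p = 0.0214) and the glutamate transporter Slc1a2 (−0.87, SE 0.19, adjusted p = 0.0324). The calls of Gulo and Slc1a2 ended without any 1 of the 6 arrays, that of Gulo also under quantile normalization and with a trended robust prior, and that of Lgr5 without high-fat control replicate 2 or 3 or PFOS replicate 2 or 3, or with the compared groups fitted alone (highest adjusted p 0.0893). The part of these cells in the Cyp1a2 signal was not tested. Cyp2e1, a pericentral P450, differed by −0.04 (SE 0.10), and Glul, glutamine synthetase of the innermost pericentral cells, by −0.36 (SE 0.12, adjusted p = 0.18). Other markers of the list had higher signals, with differences of 0.63 for the P450 Cyp2c29 (SE 0.18, unadjusted p = 0.00309, adjusted p = 0.107) and 0.22 each for Rhbg and Axin2. Cyp2c29 rose with the diets and compounds pooled (0.78, SE 0.11, adjusted p = 0.000673), so the list did not move one way. Without the divergent arrays the same 3 genes fell under PFOS on the high-fat diet and Cyp2c29 rose (0.63, SE 0.16, adjusted p = 0.0468), against 1.13% of all probes lower and 1.8% higher. Further calls appeared without these arrays, and such calls are no independent evidence. Gulo and Slc1a2 were higher with PFNA than PFOS on the high-fat diet, against 0.751% of all probes. Both were lower on the high-fat than the low-fat diet under PFOS, against 1.14%. Gulo was lower in the interaction with PFOS (−1.34, SE 0.25), against 0.11%. Cyp2c29 rose with both compounds on the low-fat diet and PFNA on the high-fat diet, against 0.302% to 1.11%. With all pooled 4 genes rose and 1 fell, against 3.79% and 2.48%.

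Cyp1b1 metabolises oestrogens and polycyclic hydrocarbons, mostly outside hepatocytes. It was 3.23, 3.28 and 3.03 in high-fat PFNA livers, 3.26, 3.01 and 3.46 in high-fat PFOS livers and 3.85, 3.06 and 2.92 in high-fat controls. In low-fat livers it was 3.08, 3.04 and 3.02 with PFNA, 3.26, 3.12 and 3.29 with PFOS and 3.25, 3.26 and 2.80 in controls. Its differences from the controls lay between −0.10 and 0.12, and the intervals between −0.51 and 0.54. The low-fat PFNA arrays were all below the low-fat PFOS arrays (−0.18, SE 0.20, adjusted p = 0.998), in a comparison where 4.36% of probes were lower without overlap and 0% were called.

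The highest Cyp1b1 signal, 3.85, came from high-fat control replicate 1. The mean of 10 stellate cell and fibroblast markers in that array was 8.15, against 7.01 to 7.45 in the other 17. The mean of 8 Kupffer cell markers was 7.94 there, within the range of 6.80 to 8.26 over all arrays, and that of 8 endothelial markers was 8.24, within 7.74 to 8.55. The array was also the highest for the 4 measured cholangiocyte markers, with a mean of 5.35 against 4.55 to 5.16 in the other 17, and for the 6 measured lymphocyte markers, with 4.81 against 4.32 to 4.76. The part of any of these cells in the Cyp1b1 signal was not tested. Between 2.80 and 3.85 the Cyp1b1 probe stayed under the receptor probes' 95th percentile on every array.

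Ahrr, the feedback repressor, was 4.0, 3.99 and 4.10 in high-fat PFNA livers, 3.80, 4.54 and 4.02 in high-fat PFOS livers and 4.05, 4.20 and 3.93 in high-fat controls. In low-fat livers it was 4.0, 4.03 and 3.74 with PFNA, 3.96, 4.04 and 3.88 with PFOS and 4.19, 3.79 and 3.9 in controls. All groups overlapped their controls. The differences from the controls lay between −0.04 and 0.06, the smallest spread among the members, and their intervals between −0.38 and 0.41. Its diet differences were 0.10 (SE 0.16) in controls, 0.16 (SE 0.16) under PFOS and 0.11 (SE 0.16) under PFNA.

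Tiparp gave the lowest p of the members, for PFOS on the low-fat diet. It was 5.35, 5.42 and 5.57 in low-fat PFOS livers and 5.35, 5.40 and 4.95 in low-fat PFNA livers, against 5.21, 4.95 and 4.79 in low-fat controls. The 3 PFOS arrays were above all 3 controls, and 1 PFNA array lay among the controls. The log2 difference was 0.46 (SE 0.14, interval 0.16 to 0.76, adjusted p = 0.192) for PFOS and 0.25 (SE 0.14, interval −0.05 to 0.55, adjusted p = 0.496) for PFNA. In the PFOS comparison 7.58% of probes were higher without overlap. The second Tiparp probe differed by 0.18 (SE 0.15) for PFOS, at a signal within the range of the receptor probes.

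On the high-fat diet Tiparp was 5.27, 5.16 and 5.47 in PFNA livers and 5.51, 5.39 and 5.32 in PFOS livers, against 5.28, 5.38 and 5.26 in controls. Here the differences were −0.01 (SE 0.14, interval −0.31 to 0.29) for PFNA and 0.10 (SE 0.14, interval −0.20 to 0.40) for PFOS. High-fat controls exceeded low-fat controls by 0.32 (SE 0.14, interval 0.02 to 0.62, adjusted p = 0.766), with no overlap, in a comparison where 4.84% of probes were higher without overlap. The low-fat controls had the lowest mean of the 6 groups (4.98 ± 0.21, SD, n = 3), and they serve in the comparisons of both compounds and of the diet, which are therefore not independent. The test of whether diet altered the response gave −0.36 (SE 0.20, adjusted p = 0.806) for PFOS and −0.26 (SE 0.20, adjusted p = 0.95) for PFNA.

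In the order of Tiparp means, low-fat PFOS (5.45) was followed by high-fat PFOS (5.41), high-fat control (5.31), high-fat PFNA (5.30), low-fat PFNA (5.23) and low-fat control (4.98). The largest step between neighbours was the last, 0.25, or 1.76 times the standard error of a difference. For Cyp1a1, Cyp1b1 and Ahrr no step exceeded 0.71 times that error.

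The genes whose signal followed each member most closely were found by Pearson's r over the 18 arrays, among 12938 or 12939 genes brighter than the median probe. This is a description, since the arrays share groups and the component above, and it is given without a test. For Cyp1a2 they were Os9 (r = 0.95), which acts in disposal of misfolded proteins, the sarcosine dehydrogenase Sardh (0.95) and the P450 Cyp2d22 (0.93). Os9 was 8.92 to 9.07 in the 5 arrays with high component scores and 9.25 to 9.77 in the other 13. For Cyp1b1 they were the nuclear body protein gene Sp100 (0.91), Lynx1 and Sparcl1 (0.83 each), and high-fat control replicate 1 was the highest array for all 3, with Sparcl1 at 7.43 there and at most 6.34 elsewhere. For Tiparp they were Wdr48 (0.81), Polr2k (0.80) and Exosc3 (0.78). For Cyp1a1 (Supt6 0.74, C1qtnf12 0.74, Mrpl47 0.73) and Ahrr (Gm4890 0.72, Arl3 0.71, Rlim 0.71) the likeness was lowest.

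Of 19 other genes of the receptor's machinery (partners, chaperones, coactivators and related factors), 17 were measured. Ahr alone was called in the 4 comparisons of a compound with its control, and the median difference of the list lay between −0.07 and 0.02, against −0.02 to −0.01 over all probes. Arnt, the receptor's partner, differed from the control by at most 0.24. Hsp90aa1, of the chaperone that holds the idle receptor in the cytosol, had the largest difference for PFOS on the low-fat diet with Xpo1, which carries proteins out of the nucleus. Both stood at 0.54 (SE 0.27, adjusted p = 0.448 for Hsp90aa1; SE 0.18, adjusted p = 0.233 for Xpo1). With the diets and compounds pooled Xpo1 rose (0.46, SE 0.11, adjusted p = 0.0222), and Ahr and the acetyltransferase gene Crebbp (−0.23, SE 0.06, adjusted p = 0.0399) fell, among 2.99% of all probes higher and 2.02% lower. The call of Crebbp ended when arrays were centred on their medians (adjusted p = 0.143) and without any 1 of 14 of the 18 arrays. That of Xpo1 ended without low-fat control replicate 2 or high-fat control replicate 2 or 3.

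Of 25 other genes that AHR ligands are known to raise, 18 were measured, and Nqo1, Cd36 and Inmt were called in comparisons of a compound with its control. The list's median difference was 0.47 for PFNA and 0.24 for PFOS on the low-fat diet, and −0.01 for PFNA and 0.22 for PFOS on the high-fat diet, against −0.02 to −0.01 over all probes. Markers of macrophages and endothelium, among other lists, had higher signals in the exposed livers on the low-fat diet. On the low-fat diet the median difference of 8 Kupffer cell and macrophage markers was 0.78 for PFNA and 0.57 for PFOS, and that of 8 endothelial markers was 0.42 for PFNA and 0.31 for PFOS, with 0 of 8 called in each case. On the high-fat diet these medians lay between 0.04 and 0.06. The medians of the stellate, lymphocyte, cholangiocyte and adipocyte lists on the low-fat diet were higher too, from 0.07 to 0.28. That of the exocrine pancreas list was lower, at −0.08 for PFNA and −0.22 for PFOS. With PFOS on the low-fat diet Marco of the macrophage list (−0.09) and Bmp2 of the endothelial list (−0.30) were lower. The mean signal of the macrophage list was 7.86 to 8.22 in low-fat PFNA livers and 7.53 to 8.26 in low-fat PFOS livers, against 7.0 to 7.74 in low-fat controls. The part of any of these cells in the difference of the target list was not tested. On the low-fat diet 1 member rose with PFNA and 2 with PFOS, against 0.374% and 0.281% of all probes. On the high-fat diet 1 rose with each compound, against 0.087% with PFNA and 0.632% with PFOS. In these 4 comparisons 0 of the 18 fell, against 0.0261% of all probes with PFNA and 0.389% with PFOS on the high-fat diet, and 0.191% with PFNA and 0.107% with PFOS on the low-fat diet.

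These counts depended on the divergent arrays. Those arrays were left out with their values known, so the calls that follow are no independent evidence. Without these arrays, 4 of the 18 targets rose and 2 fell with PFOS on the high-fat diet, against 1.8% of all probes higher and 1.13% lower. Those that rose were Gadd45b (1.42), Cd36 (1.12), Inmt (0.85) and Nqo1 (0.76), and those that fell were Notum, which inactivates Wnt proteins (−0.72, SE 0.12, adjusted p = 0.00418), and Xdh, xanthine dehydrogenase (−0.45, SE 0.11, adjusted p = 0.0469). With PFNA on the high-fat diet 0 rose and 0 fell, against 0.302% of all probes higher and 0.128% lower. On the low-fat diet 2 rose with PFNA (Cd36 and Nqo1) and 0 fell, against 1.11% of all probes higher and 0.609% lower. With PFOS on that diet 1 rose (Cd36) and 0 fell, against 0.766% higher and 0.551% lower.

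Nqo1, a quinone reductase that the oxidant sensor NRF2 also controls, was 6.43, 6.39 and 7.01 in low-fat PFNA livers and 6.77, 6.35 and 7.0 in low-fat PFOS livers, against 5.73, 5.91 and 5.45 in low-fat controls. It rose by 0.91 (SE 0.20, adjusted p = 0.0495) with PFNA and by 1.01 (SE 0.20, adjusted p = 0.0415) with PFOS. Both calls ended under quantile normalization and in a fit to the compared groups alone, and the PFOS call without the divergent arrays. They also ended without any 1 compared array, except that the PFOS call held without PFOS replicate 2, with adjusted p up to 0.215 for PFNA and 0.133 for PFOS. On the high-fat diet Nqo1 was 6.61, 6.32 and 6.86 with PFNA and 6.95, 7.04 and 7.13 with PFOS, against 6.51, 6.05 and 6.28 in controls. Over all exposed livers its rise was 0.75 (SE 0.12, adjusted p = 0.00195), and that call held without any 1 array.

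**Figure D4:**
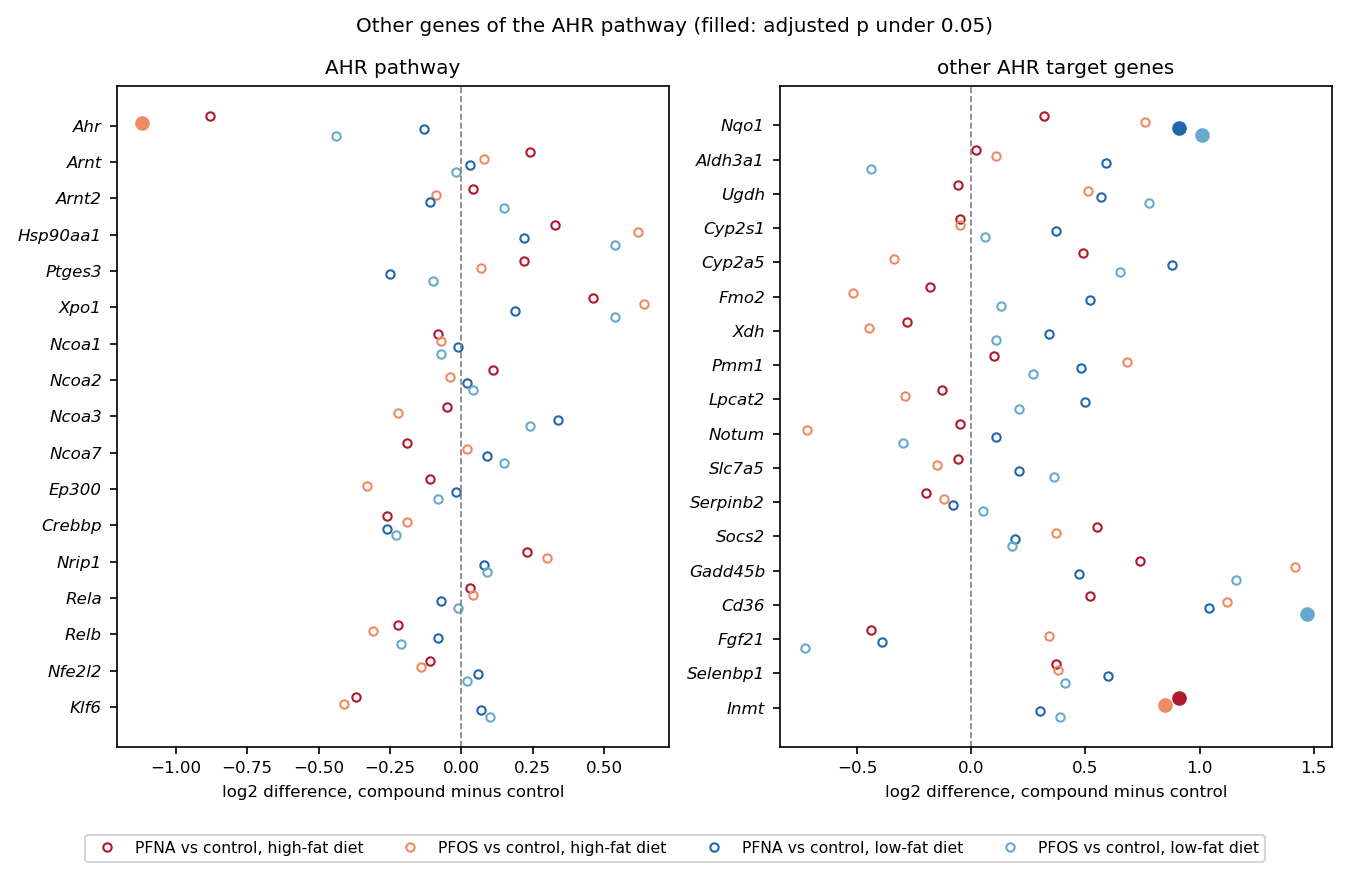
Log2 differences between each compound and the control of its diet for 17 genes of the AHR machinery (left) and 18 other AHR target genes (right); colours are the 4 comparisons and filled points passed an adjusted p under 0.05. The filled points are Ahr at −1.12, Nqo1 at 0.91 and 1.01, Cd36 at 1.47 and Inmt at 0.91 and 0.85.

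Cd36, a fatty acid transporter that PPARs also control, rose with PFOS on the low-fat diet (1.47, SE 0.31, adjusted p = 0.046), a call that ended without any 1 compared array, under quantile normalization, with a trended robust prior and in a fit to the compared groups alone (highest adjusted p 0.22). Inmt, a methyltransferase of indole amines, rose on the high-fat diet with PFNA (0.91, SE 0.17, adjusted p = 0.046) and with PFOS (0.85, SE 0.17, adjusted p = 0.0256). The PFNA call ended without any 1 compared array (highest adjusted p 0.154) and without the divergent arrays, and the PFOS call without 5 of the 6, all but PFOS replicate 2 (highest 0.085). Both ended in a fit to the compared groups alone. With the diets and compounds pooled, 5 of the 18 rose and 0 fell, against 2.99% of all probes higher and 2.02% lower. The 5 were Gadd45b, a stress-inducible growth arrest gene (0.95, SE 0.21), Cd36 (1.04, SE 0.19), Nqo1, Inmt (0.61, SE 0.10) and the selenium-binding protein gene Selenbp1 (0.44, SE 0.10), with adjusted p between 0.00195 and 0.0171. Without the divergent arrays 6 rose and 0 fell, against 3.79% of all probes higher and 2.48% lower. The added gene was Cyp2a5 (0.64, SE 0.16, adjusted p = 0.0258). Of the 5 pooled calls, that of Selenbp1 ended without high-fat control replicate 3.

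Aldh3a1, an aldehyde dehydrogenase that is silent in normal liver and strongly induced by dioxin, was 4.35, 4.03 and 5.53 in low-fat PFNA livers, 3.53, 3.66 and 3.65 in low-fat PFOS livers and 4.10, 3.9 and 4.15 in low-fat controls. The value of 5.53 in low-fat PFNA replicate 3 was the highest on any array, and Cyp1a1 in the same array was 4.28. That array was also the highest for the target Cyp2s1 (5.44), the stellate marker Des (7.29) and the macrophage marker Marco (7.66). The highest values elsewhere were 4.91, 5.79 and 6.94. Other markers of these cells were not at their highest there, such as Col1a1 (6.43) and Csf1r (8.69). In Aldh3a1, PFNA exceeded PFOS on the low-fat diet by 1.02 (SE 0.26, unadjusted p = 0.00114, adjusted p = 0.998), in a comparison with 0% of probes called. Without low-fat PFNA replicate 3 the difference was 0.58 (SE 0.17, unadjusted p = 0.00431, adjusted p = 0.999), and without any other 1 of the 6 it lay between 0.98 and 1.33. In the comparisons between the diets, between the compounds and of their interaction, 0 members of both lists were called with all 18 arrays. Without the divergent arrays 3 to 4 targets and 0 machinery genes were called in 2 of these comparisons. These calls are no independent evidence, since the arrays were left out with their values known. PFNA livers exceeded PFOS livers on the high-fat diet in Cyp2a5 (1.27, SE 0.28, adjusted p = 0.0339) and Notum (1.08, SE 0.13, adjusted p = 0.00086) and were lower in Ugdh, UDP-glucose dehydrogenase (−0.84, SE 0.18, adjusted p = 0.0303), against 0.751% of all probes higher and 0.728% lower. Under PFOS, high-fat livers exceeded low-fat livers in Ugdh (0.73, SE 0.18, adjusted p = 0.0482) and were lower in Cyp2a5 (−1.15, SE 0.28, adjusted p = 0.0452), Notum (−0.93, SE 0.13, adjusted p = 0.00249) and Xdh (−0.52, SE 0.13, adjusted p = 0.0453), against 1.08% of all probes higher and 1.14% lower. The largest differences with all arrays, none of them past the threshold, were as follows.

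Between PFNA and PFOS the machinery differed most in Hsp90aa1 (−0.29) and Ahr (0.25) on the high-fat diet and in Xpo1 (−0.35) and Ahr (0.32) on the low-fat diet. Among the targets it was the P450 Cyp2a5 (0.83) and the hormone Fgf21 (−0.78) on the high-fat diet, and next to Aldh3a1 on the low-fat diet it was Gadd45b (−0.69). Between the high-fat and low-fat diets, in controls, the machinery differed most in Klf6 (0.60) and Ahr (0.40) and the targets in Cd36 (1.02) and Socs2 (−0.90). Pooled over the exposures, the targets Cd36 (0.73) and Socs2 (−0.72) and the machinery genes Hsp90aa1 (0.36) and Klf6 (0.28) led. Under PFOS the values were 0.90 for Fgf21, −0.71 for Cyp2a5, 0.38 for Hsp90aa1 and −0.33 for Ncoa3. Under PFNA they were −0.61 for Aldh3a1, 0.56 for Gadd45b, 0.41 for Hsp90aa1 and −0.35 for Ahr. In the interaction with PFOS they were 1.06 for Fgf21, −0.99 for Cyp2a5, −0.68 for Ahr and −0.51 for Klf6. In that with PFNA they were −0.75 for Ahr, 0.47 for Ptges3, −0.70 for Fmo2 and −0.63 for Lpcat2 and for Ugdh. In the machinery, PFNA on the low-fat diet differed from its control most in Ncoa3 (0.34) and Crebbp (−0.26), and on the high-fat diet in Ahr and Xpo1 (0.46).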

How the data were processed

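The authors deposited 1 signal per probe and array for 34472 probes, and the submitters' processing notes name Transcriptome Analysis Console. The deposited values were read as log2 signal from their range and skew, since the base of the logarithm, the background correction and the normalization are stated in no label or header. Array medians lay between 4.43 and 4.59, and the number of arrays limits the precision. Probes with 1 gene symbol numbered 23521, with several 1814 and with none 9137.

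With all 18 arrays in 1 model, each group got a mean of its own in limma 3.58.1 in R 4.3.3 (12 residual and 5.21 prior degrees of freedom), without a filter. P-values were adjusted by Benjamini and Hochberg over all probes within each contrast. Errors are the fit's standard errors, and intervals are 95% confidence intervals. The script was tested on simulated data. The labels call the replicates biological.

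The members, the lists of AHR machinery, AHR targets and cell markers and the alternatives were chosen with earlier results of these data known. Members were always named. From each AHR list up to 4 called genes per comparison were named, or otherwise the 2 largest differences, and further genes, such as Aldh3a1, Arnt and the pericentral markers, were named with their values seen. The pericentral, periportal, stellate, Kupffer and endothelial lists were used beside results, and the mean signals of the lymphocyte, cholangiocyte, adipocyte and exocrine pancreas lists ran from 4.32 to 4.81, 4.55 to 5.35, 4.35 to 5.24 and 3.95 to 4.31. Alternatives covered normalization, a low-signal filter, the variance prior, a replicate block, each array left out, the probes of a gene, the groups fitted and the divergent arrays.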

Additional observations from a re-analysis of the deposited data

How the results depend on the processing

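No member was called in any comparison in 24 of the 27 settings tried, the reported one included. In the other 3 Cyp1a2 was called. Without low-fat PFOS replicate 3, and without high-fat PFNA replicate 3, the F test across the groups called 1 member, so its count ran from 0 to 1 over the arrays left out. Without both divergent arrays, a setting chosen after seeing the data, the count was 1 for the F test, 1 for PFNA against PFOS on the high-fat diet and 1 for the high-fat against the low-fat diet under PFOS. In the 13 contrasts it stayed 0 without any single array. The low-signal filter kept 3 of 5 members, all but Cyp1b1 and Ahrr, which have no value there. The replicate numbers did not pair the arrays: of 27 pairs of same-numbered arrays 1 had deviations that correlated over 0.1 (−0.072 to 0.18). With a replicate block 0 members were called and the Cyp1a2 difference between PFNA and PFOS on the high-fat diet was 0.70 (adjusted p = 0.501), and of the genes named the calls of Inmt with PFNA (adjusted p = 0.0549) and Crebbp (0.0526) ended. The cause was not tested.

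The number of probes called moved more. It was 134 for PFOS on the low-fat diet, with 85 under quantile normalization, 267 with the filter, 6 in a fit to the compared groups alone and 454 without the divergent arrays. For PFNA on the low-fat diet it was 195, with 302 under median centring, 539 with the filter, 388 with a trended robust prior and 593 without the divergent arrays. For PFOS on the high-fat diet it was 352, with 774, 550 and 1011 under the last 3 of these settings. For PFNA on the high-fat diet it was 39, with 59, 114, 120 and 148 under the same 4, and 6 for the compared groups alone. For the F test it was 331, with 643, 547 and 1686 under the filter, the prior and without the divergent arrays. Without the divergent arrays 510 probes were called between the compounds on the high-fat diet (otherwise 1), 765 between the diets under PFOS (0), 44 between the diets pooled (1) and 83 in the interaction with PFOS (0). Over single arrays left out, the counts ran from 22 to 260 for PFOS and 26 to 127 for PFNA on the low-fat diet, 61 to 184 for PFOS and 9 to 34 for PFNA on the high-fat diet, 160 to 958 for the F test, 1073 to 1972 for any compound and 0 to 33 between the diets under PFOS. Between the diets in controls it was 1, and 0 to 8 over all settings. The 1 probe called between the compounds on the high-fat diet was lost under quantile normalization, median centring, the block and in a fit to the compared groups alone. Signals at the level of the receptor probes limit what Cyp1a1, Cyp1b1 and Ahrr can show.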
